A study of Mus musculus with 2 samples.

Results

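The lineage-determining transcription factors of the myeloid system Spi1, Irf4, Irf8, Batf3, Zbtb46, Maf, Cebpb, Klf4 and Id2, were read across monocyte, macrophage and dendritic cell subsets of denervated muscle. The genes were taken from a written list of 9 names, and all 9 were among the 32287 features of the matrix. The cells were GFP+ cells viable by propidium iodide, sorted from the tibialis anterior and gastrocnemius muscles of 2-month-old male S100GFPtg mice 7 days after sciatic nerve injury by crush. The transgene drives green fluorescent protein from the S100B promoter to mark Schwann cells, and no other genotype entered here. Whether the library came from 1 mouse or from several pooled males differs between the series text and the methods, so the number of animals was not certain. The methods also give an older age range for crush experiments than 2 months. All values come from 1 droplet library with 3' tags, so there was no replicate and no test. Of the GFP- library of the series only the barcode list was used, and its counts were not analysed here.

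These factors work as a hierarchy. PU.1, the product of Spi1, opens the enhancers of all myeloid cells, and IRF4 and IRF8 bind composite sites together with it or with BATF proteins. C/EBPβ, from Cebpb, and KLF4 act in monocytes, and c-MAF supports the macrophage program. IRF8, BATF3 and ID2 are required for type 1 conventional dendritic cells, which take up dead cells and cross-present antigen, whereas IRF4 and KLF4 act in type 2 conventional dendritic cells. ZBTB46 marks conventional dendritic cells against monocytes and macrophages. In injured muscle and nerve, monocytes enter from blood and mature into macrophages that clear debris.

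The library held 36400 barcodes and 170648616 unique molecular identifiers (UMIs), and 8894 barcodes with at least 5000 UMIs were used, which made up 24.4% of barcodes and 67.6% of UMIs. Filters on genes and mitochondrial counts left 8701 barcodes, of which 6008 were myeloid by pan-leukocyte genes. Subsets were gated on marker UMIs, none of them a gene of the list. The Ly6c2 Chil3 monocyte gate held 223 barcodes, the Lyve1 Folr2 macrophage gate 3066, the Gpnmb Fabp5 macrophage gate 141 and the MHC class II C1q macrophage gate 1122. Among dendritic cells, the Xcr1 Clec9a gate (type 1) held 196 barcodes, the Cd209a Flt3 gate (type 2) 192 and the Ccr7 Fscn1 gate (mature) 12. A further 946 myeloid barcodes passed no gate and 104 passed several and were left out. Median depth ran from 9640 UMIs (MHC class II C1q) to 19723 UMIs (Gpnmb Fabp5). In total 372 barcodes, 84 of them deep, also occurred in the GFP- list, and the comparisons without them stand in the closing section.

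Marker genes outside the gates were checked for 6 of the 7 gates, and the MHC class II C1q gate had no list of its own. All 5 monocyte genes, such as Ccr2 and Vcan, were highest of the 7 gates in the monocyte gate, and all 6 resident macrophage genes, such as Mrc1 and F13a1, in the Lyve1 Folr2 gate. The 6 lipid-associated genes, such as Trem2 and Spp1, were highest in the Gpnmb Fabp5 gate, the 6 type 1 genes in the Xcr1 Clec9a gate and the 6 mature genes in the Ccr7 Fscn1 gate. For the Cd209a Flt3 gate it was 4 of 6, since Ccr6 and Cd24a were higher elsewhere. Macrophage genes (Adgre1, Mertk, Fcgr1 and Csf1r) summed to 1576 UMIs per 1000000 UMIs of the gate (CPM) in the Lyve1 Folr2 gate, 134 CPM in the Cd209a Flt3 gate and 19.1 CPM in the Xcr1 Clec9a gate. Each level below is the pooled CPM of a gate with an exact Poisson 95% interval. Log2 ratios carry exact conditional 95% intervals, and shares exact binomial ones. All of them cover counting error only, and neither the spread between barcodes nor that between animals.

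**Figure D1:**
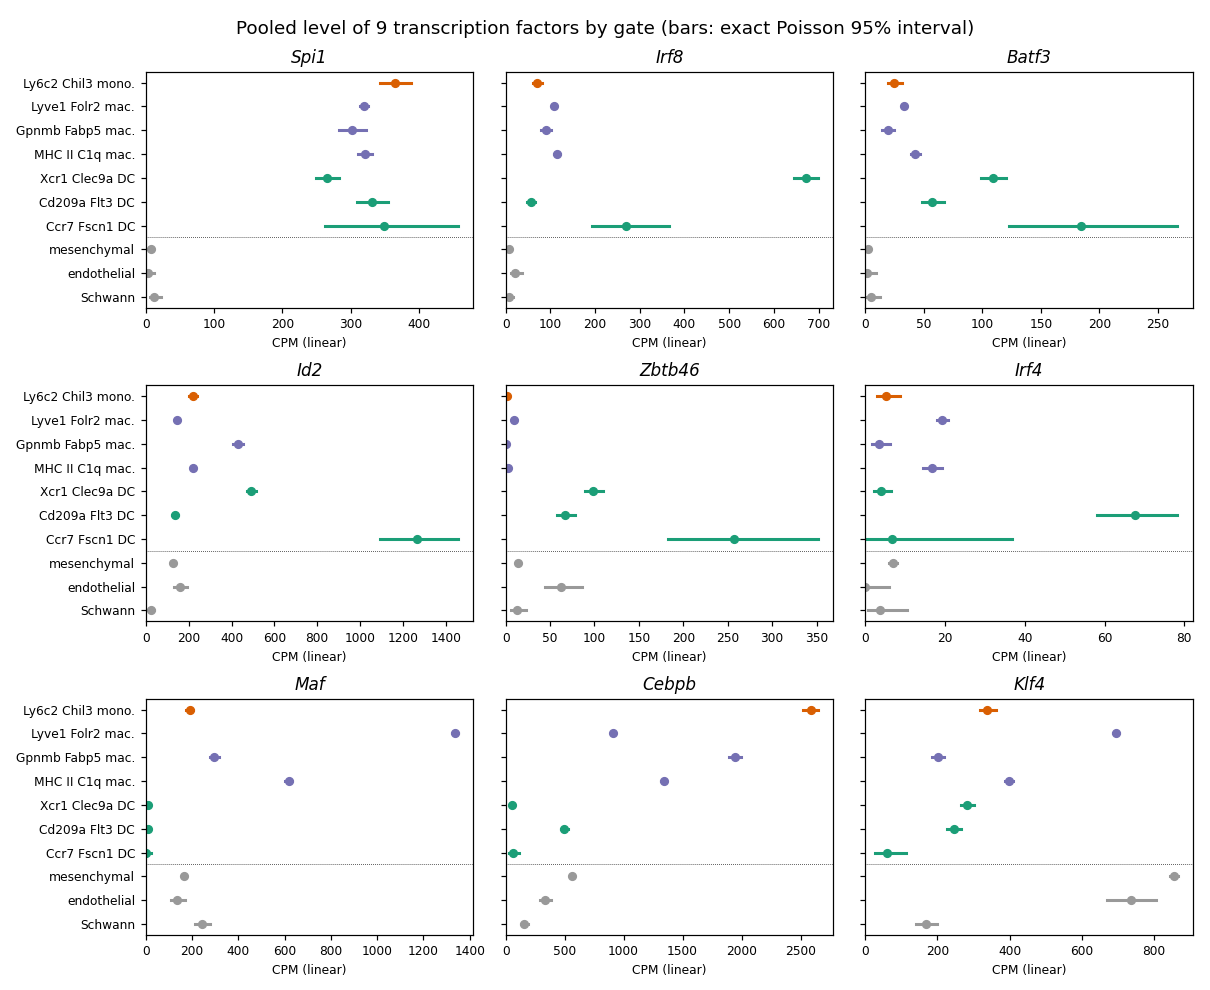
Pooled level of each gene by gate, in CPM on a linear axis that starts at 0, with exact Poisson 95% intervals as bars. Orange marks the monocyte gate, purple the macrophage gates, green the dendritic gates, and grey the mesenchymal, endothelial and Schwann gates below the dotted line. Spi1 lies between 265 and 365 CPM in all 7 myeloid gates, while Irf8 peaks at 671 CPM in the Xcr1 Clec9a gate, Maf at 1337 CPM in the Lyve1 Folr2 gate and Cebpb at 2584 CPM in the monocyte gate.

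Spi1 (GRCm38.p6 chr2:91082374-91115759), which encodes PU.1, varied least of the 9 genes. Over the 6 gates with at least 50 barcodes its level lay between 265 CPM (249 to 282) in the Xcr1 Clec9a gate and 365 CPM (343 to 389) in the monocyte gate, a 1.38-fold range. The Cd209a Flt3 gate stood at 331 CPM, the MHC class II C1q gate at 321 CPM, the Lyve1 Folr2 gate at 319.6 CPM and the Gpnmb Fabp5 gate at 302 CPM, and neighbours in that order had overlapping intervals. Only the step down to the Xcr1 Clec9a gate exceeded them. The monocyte gate was higher than the Lyve1 Folr2 gate by 0.19 on the log2 scale (0.10 to 0.29). Per barcode, the UMIs ran from 0 to 27 with medians of 3 to 5, and in the Xcr1 Clec9a gate all 196 barcodes held at least 1 UMI.

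Outside the myeloid cells Spi1 was nearly absent. The mesenchymal gate (1747 barcodes) had 8.20 CPM (7.14 to 9.37), the endothelial gate (57 barcodes) 2 UMIs and the Schwann gate (82 barcodes) 10 UMIs. The monocyte gate exceeded the mesenchymal gate by 5.48 on the log2 scale (5.26 to 5.70), a 44.5-fold ratio, and by 6.39 after Scrublet removal of likely doublets. The mesenchymal level of Spi1 was 2.57% of that in the Lyve1 Folr2 gate. Macrophage genes reached a like share there, 2.09% for Mrc1, 1.82% for F13a1, 1.84% for C1qa and 2.57% for Csf1r. After each barcode was thinned to 5000 UMIs, 76.5% of the Lyve1 Folr2 gate (75.0 to 78.0, 94.4% unthinned) and 4.41% of the mesenchymal gate (3.49 to 5.48, 7.1% unthinned) held a Spi1 UMI, at median depths of 11727 and 14349 UMIs before thinning.

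**Figure D2:**
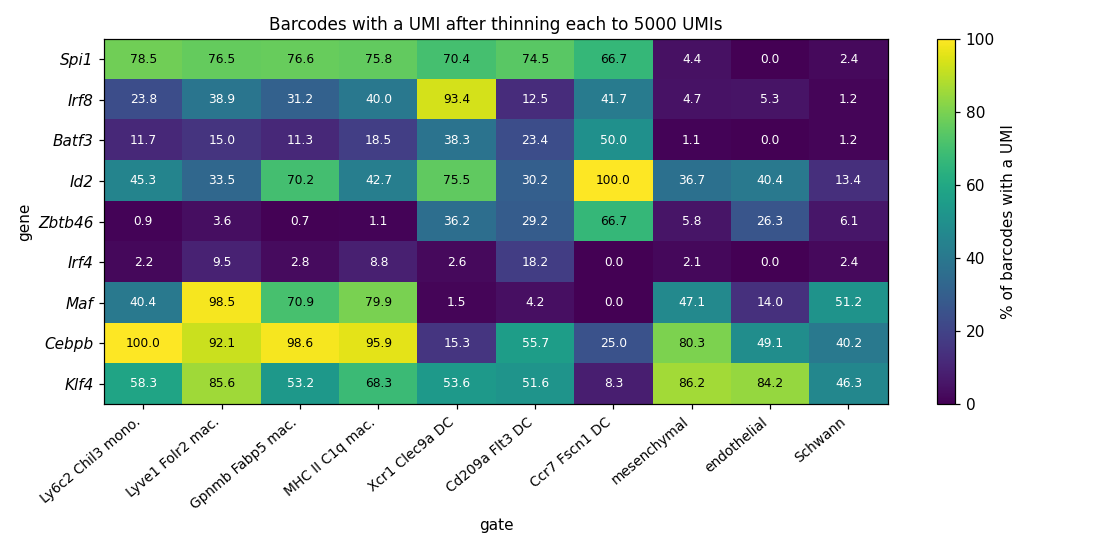
Share of barcodes with at least 1 UMI of each gene (rows) in each gate (columns), in percent, after every barcode was thinned at random to 5000 UMIs. Each cell carries its value. Irf8 was seen in 93.4% of the Xcr1 Clec9a gate and 12.5% of the Cd209a Flt3 gate, and Maf in 98.5% of the Lyve1 Folr2 gate and 1.5% of the Xcr1 Clec9a gate.

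The interferon regulatory factors separated the dendritic subsets, so the 250 bases before the RefSeq start of Irf8, its partner Batf3 and Irf4 are shown (GRCm38.p6, 5′ to 3′, all on the plus strand). Capitals mark matches on either strand to motifs of factors that act in these cells. Irf8 is chr8:120736108-120736357, Batf3 chr1:191098164-191098413 and Irf4 chr13:30748983-30749232.
Irf8: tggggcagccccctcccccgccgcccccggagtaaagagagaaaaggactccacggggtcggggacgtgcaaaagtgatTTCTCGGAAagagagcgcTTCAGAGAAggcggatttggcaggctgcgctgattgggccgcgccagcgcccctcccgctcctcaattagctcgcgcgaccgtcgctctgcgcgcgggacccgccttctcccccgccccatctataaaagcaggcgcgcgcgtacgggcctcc
Batf3: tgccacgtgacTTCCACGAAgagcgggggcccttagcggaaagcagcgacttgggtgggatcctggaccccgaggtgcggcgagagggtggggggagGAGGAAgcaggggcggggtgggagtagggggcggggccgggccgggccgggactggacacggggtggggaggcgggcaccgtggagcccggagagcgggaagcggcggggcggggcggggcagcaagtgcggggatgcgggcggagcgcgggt
Irf4: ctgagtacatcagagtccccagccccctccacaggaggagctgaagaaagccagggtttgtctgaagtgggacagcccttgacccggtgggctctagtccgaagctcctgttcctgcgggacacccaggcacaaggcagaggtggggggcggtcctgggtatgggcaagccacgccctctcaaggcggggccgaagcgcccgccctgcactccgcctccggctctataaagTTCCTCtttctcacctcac

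The 7 motifs searched were the PU.1 box GAGGAA, the ETS-IRF composite (GGAA and GAAA with 2 free bases between them), the interferon-stimulated response element (GAAA, 2 free bases, GAAA), the C/EBP site TTGCNNAA, the STAT-binding GAS element TTCNNNGAA, the AP-1 site TGANTCA and the NF-kB site (GGGA, 1 free base, TTTCC). The letters of the composite overlap those of the PU.1 box and the response element. Irf8 held 2 GAS matches, from -171 to -163 and from -153 to -145 relative to the start, and Batf3 held 1, from -239 to -231. Of 32851 RefSeq promoter windows of this length, 7.02% held a GAS match. Batf3 and Irf4 each held 1 PU.1 box, as did 23.3% of all windows. Zbtb46 held 1 AP-1 site (6.75% of windows), in a window on the minus strand at chr2:181424389-181424638 that lies inside the gene's span, before an internal start. The windows of Cebpb, Klf4 and Id2 and a second Irf8 start held no match to any of the 7 motifs. The remaining motifs occurred in 2.30% (composite), 2.98% (response element), 9.56% (C/EBP) and 0.356% (NF-kB) of windows. A match describes the letters only.

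Irf8 (chr8:120736358-120756694), the terminal selector of type 1 dendritic cells, reached 671 CPM (645 to 698) in the Xcr1 Clec9a gate. All but 1 of the 196 barcodes held it, with a median of 10 and a maximum of 64 UMIs. The Cd209a Flt3 gate had 56.2 CPM (47.5 to 66.0), a median of 0 and a maximum of 18 UMIs. The ratio was 3.58 on the log2 scale (3.34 to 3.83), or 11.9-fold, and 4.20 with doubled gate thresholds. Monocytes and macrophages lay between these dendritic gates, with 70.2 CPM in the monocyte gate, 89.5 CPM in the Gpnmb Fabp5 gate, 107 CPM in the Lyve1 Folr2 gate and 115 CPM in the MHC class II C1q gate. Intervals overlapped between the latter pair, between the Gpnmb Fabp5 and monocyte gates and between the monocyte and Cd209a Flt3 gates. The mesenchymal gate had 8.20 CPM.

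Within the Cd209a Flt3 gate Irf8 was uneven. Only 38 of 192 barcodes held a UMI, and 5 barcodes held 39.2% of the 148 UMIs. Split on Flt3, the receptor for the growth factor that maintains dendritic cells, the 120 barcodes with a Flt3 UMI (the others passed the gate on Cd209a alone) had 76.7 CPM of Irf8 (63.6 to 91.7) and the 72 without one 26.2 CPM (17.4 to 37.9), a log2 ratio of 1.55 (0.95 to 2.20). The barcodes without Flt3 had more Mgl2 (935 against 357 CPM). In the Ccr7 Fscn1 gate Irf8 stood at 270.1 CPM (194 to 366), with 24 of its 41 UMIs in 1 of the 12 barcodes.

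Batf3 (chr1:191098414-191108943), the AP-1 family partner of IRF8 at type 1 enhancers, followed a shallower order. It stood at 109 CPM (98.6 to 120.1) in the Xcr1 Clec9a gate and 57.0 CPM (48.2 to 66.8) in the Cd209a Flt3 gate, a log2 ratio of 0.94 (0.66 to 1.22). The MHC class II C1q gate had 42.7 CPM, the Lyve1 Folr2 gate 32.9 CPM, the monocyte gate 24.4 CPM and the Gpnmb Fabp5 gate 19.1 CPM, and only the last pair overlapped. Batf3 was higher in the Ccr7 Fscn1 gate, at 184 CPM (123 to 267), than in the pooled Xcr1 Clec9a and Cd209a Flt3 gates (87.4 CPM). Within the Lyve1 Folr2 gate it was higher in the 1094 barcodes with high MHC class II (43.0 CPM) than in the other 1972 (27.5 CPM), by 0.64 on the log2 scale (0.48 to 0.81). Ccr2 (271 against 33.5 CPM), Ccl22 (4.09 against 0.239 CPM) and Mgl2 (838 against 450.4 CPM), genes of monocytes and dendritic cells, were also higher in the former barcodes, and their part in the Batf3 difference was not tested. The mesenchymal gate had 2.58 CPM.

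Id2 (chr12:25093799-25096092), which encodes an inhibitor of E proteins, had 492 CPM (470.0 to 515) in the Xcr1 Clec9a gate and 136 CPM (123 to 151) in the Cd209a Flt3 gate. The log2 ratio was 1.85 (1.69 to 2.02). The Ccr7 Fscn1 gate exceeded both, at 1265 CPM (1092 to 1457), with 4 to 49 UMIs in each of its 12 barcodes and 25.5% of the UMIs in the highest barcode. Id2 was no dendritic marker by itself, since the Gpnmb Fabp5 gate reached 429 CPM (406 to 453). The monocyte and MHC class II C1q gates had 221 CPM each, the Lyve1 Folr2 gate 146 CPM, the mesenchymal gate 124 CPM and the endothelial gate 159 CPM. The monocyte and MHC class II C1q intervals overlapped, as did those of the Lyve1 Folr2 and Cd209a Flt3 gates.

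Irf4 (chr13:30749233-30766981), the counterpart of IRF8 in type 2 dendritic cells, showed the opposite order. The Cd209a Flt3 gate had 67.6 CPM (58.0 to 78.3) and the Xcr1 Clec9a gate 3.77 CPM (2.06 to 6.33), a log2 ratio of 4.16 (3.38 to 5.06) from 178 and 14 UMIs. The Lyve1 Folr2 gate had 19.2 CPM and the MHC class II C1q gate 16.8 CPM, with overlapping intervals. The monocyte gate had 5.17 CPM from 14 UMIs and the Gpnmb Fabp5 gate 3.40 CPM from 10 UMIs, and both intervals overlapped that of the Xcr1 Clec9a gate. The mesenchymal gate had 6.95 CPM (5.98 to 8.03), and its interval overlapped those of the 3 lowest myeloid gates.

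Irf4 UMIs were unevenly spread over the type 2 gate. In the Cd209a Flt3 gate 68 of 192 barcodes held a UMI (35.4%, and 18.2% after thinning), the highest barcode held 26 UMIs, and 11 barcodes held at least as many UMIs as all others together. Irf4 was lower where Flt3 was present (55.0 CPM) than where it was not (86.1 CPM), with a log2 ratio of -0.65 (-1.09 to -0.21), the reverse of Irf8 in the same split. After thinning, no barcode of the Cd209a Flt3 gate held UMIs of both factors, while 24 held Irf8 alone and 35 Irf4 alone. At 3 counts, 0 of 192 allows up to 1.56% of barcodes with UMIs of both at this depth, which is no limit on cells that express both. In the Lyve1 Folr2 gate 121 of 3066 barcodes held both. In the Ccr7 Fscn1 gate a single Irf4 UMI was found, a log2 ratio of -2.20 (-7.51 to 0.30) to the other dendritic gates, so a difference was not detectable at this depth.

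**Figure D3:**
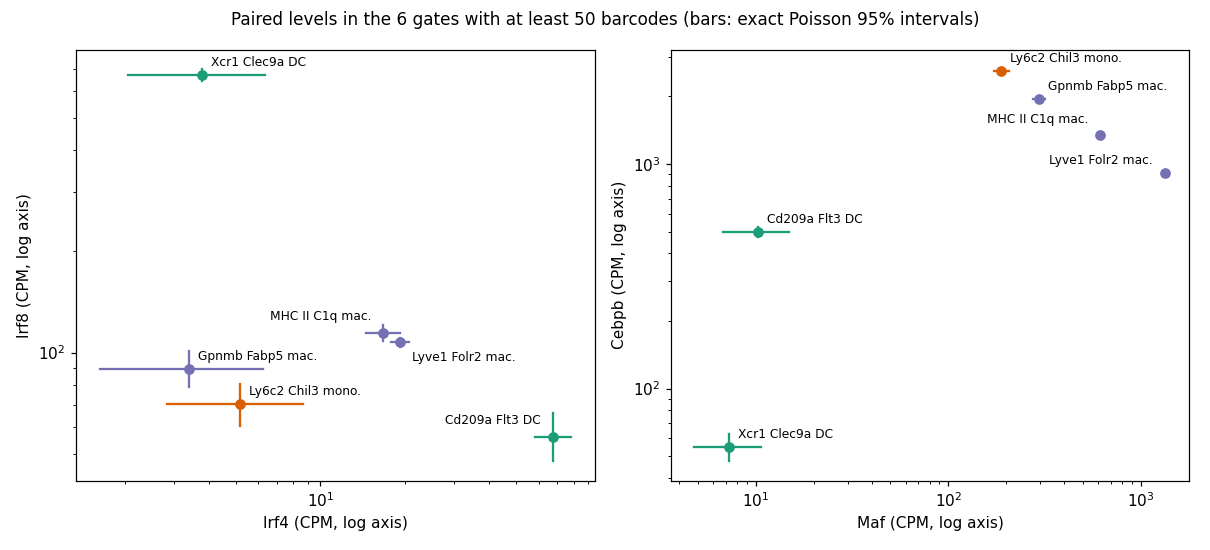
Pooled levels of Irf8 against Irf4 (left) and of Cebpb against Maf (right) in the 6 gates with at least 50 barcodes, in CPM on log axes, with exact Poisson 95% intervals as bars and the colours of the plot of levels by gate. The Xcr1 Clec9a gate sits at 671 CPM of Irf8 and 3.77 CPM of Irf4 and the Cd209a Flt3 gate at 56.2 and 67.6 CPM. On the right, Cebpb is lower in each gate of higher Maf among the monocyte and macrophage gates, and both dendritic gates lie near 10 CPM of Maf or under it.

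Zbtb46 (chr2:181371009-181493262), a zinc finger factor of conventional dendritic cells, was 89.6 CPM (82.5 to 97.2) in the pooled dendritic gates and 7.21 CPM (6.51 to 7.97) in the pooled macrophage gates. The log2 ratio was 3.64 (3.45 to 3.83). All 3 dendritic gates carried it, with 98.7 CPM (88.8 to 109) in the Xcr1 Clec9a gate, 67.2 CPM (57.7 to 77.9) in the Cd209a Flt3 gate and 257 CPM (183 to 351) in the Ccr7 Fscn1 gate, where 13 of the 39 UMIs came from 1 barcode. The monocyte gate held 4 UMIs and the Gpnmb Fabp5 gate 2, against 349 UMIs (9.04 CPM) in the Lyve1 Folr2 gate and 34 UMIs (2.86 CPM) in the MHC class II C1q gate. Outside the myeloid cells the endothelial gate reached 62.6 CPM (44.5 to 85.6), close to the Cd209a Flt3 gate, and the mesenchymal gate had 13.9 CPM. After thinning, 33.8% of the pooled dendritic barcodes (29.1 to 38.6) and 2.82% of macrophage barcodes (2.35 to 3.36) held a UMI, against 26.3% of endothelial barcodes (15.5 to 39.7).

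Maf (chr8:115703253-115706894), which encodes the macrophage factor c-MAF, spanned a 184-fold range over the 6 gates with at least 50 barcodes. It stood at 1337 CPM (1326 to 1349) in the Lyve1 Folr2 gate, 617 CPM (603 to 631) in the MHC class II C1q gate, 296 CPM (277 to 317) in the Gpnmb Fabp5 gate and 189 CPM (173 to 206) in the monocyte gate. No intervals overlapped. The Lyve1 Folr2 gate exceeded the monocyte gate by 2.83 on the log2 scale (2.70 to 2.95) and the Gpnmb Fabp5 gate by 2.17 (2.08 to 2.27). Of its 3066 barcodes 3056 held a Maf UMI, with a median of 14, whereas the monocyte gate had a median of 1 and 134 of 223 barcodes.

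Dendritic gates nearly lacked Maf. The Xcr1 Clec9a gate had 7.28 CPM (4.80 to 10.6), the Cd209a Flt3 gate 10.3 CPM (6.76 to 14.9), from 27 UMIs each and with overlapping intervals, and the Ccr7 Fscn1 gate 0 UMIs, which allows up to 19.8 CPM at 3 counts. Pooled, they had 8.32 CPM against 1119.8 CPM in the macrophage gates, a log2 ratio of -7.07 (-7.49 to -6.69). Maf was not confined to myeloid cells, with 166 CPM in the mesenchymal gate, 136 CPM in the endothelial gate and 243 CPM in the Schwann gate. In the endothelial gate 10 of 57 barcodes held a UMI and 1 held 35 of the 85 UMIs, and in the Schwann gate 5 of 82 barcodes held 45.9%, whereas 1196 of 1747 mesenchymal barcodes held one. The 3 levels came to 12.4%, 10.2% and 18.2% of the Lyve1 Folr2 level, above the 2.09%, 0.489% and 4.21% of Mrc1. Within the Lyve1 Folr2 gate Maf was lower in barcodes with high MHC class II (1186 CPM) than in the others (1418 CPM), with a log2 ratio of -0.26 (-0.29 to -0.23).

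Cebpb (chr2:167688915-167690432), which encodes C/EBPβ, ran the other way along the monocytes and macrophages. It was 2584 CPM (2524 to 2645) in the monocyte gate, 1947 CPM (1897 to 1998) in the Gpnmb Fabp5 gate, 1341 CPM (1320.3 to 1362) in the MHC class II C1q gate and 909.8 CPM (900.3 to 919) in the Lyve1 Folr2 gate. The monocyte gate exceeded the Lyve1 Folr2 gate by 1.51 on the log2 scale (1.47 to 1.54), or 2.84-fold. All 223 monocyte barcodes held Cebpb, from 5 to 137 UMIs with a median of 28. In the Lyve1 Folr2 gate the median was 9 and the range 0 to 159.

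Among dendritic cells Cebpb was 498 CPM (471 to 525.5) in the Cd209a Flt3 gate and 54.7 CPM (47.5 to 62.8) in the Xcr1 Clec9a gate, a log2 ratio of -3.19 (-3.41 to -2.97) for the latter against the former. The 72 barcodes of the Cd209a Flt3 gate without a Flt3 UMI had 722 CPM, and the 120 with one 345 CPM, a log2 ratio of -1.07 (-1.23 to -0.91). The 5 monocyte genes summed to 768 CPM in the Cd209a Flt3 gate, 2880 CPM in the monocyte gate and 353 CPM in the Xcr1 Clec9a gate. The part that monocyte-derived cells had in the Cebpb level of the Cd209a Flt3 gate was not tested. The Ccr7 Fscn1 gate held 9 UMIs (59.3 CPM, 27.1 to 113), and the mesenchymal gate 559.6 CPM.

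**Figure D4:**
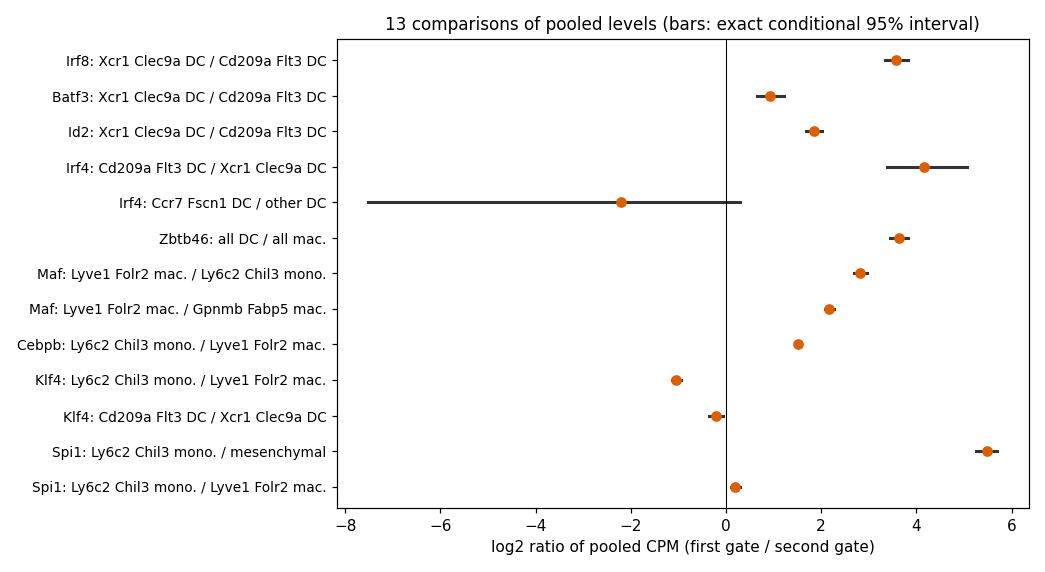
Log2 ratio of the pooled levels of 2 gates for the 13 comparisons made, with exact conditional 95% intervals as bars and a line at 0 (equal levels). Ratios over 0 mean a higher level in the first gate named, and all intervals leave out 0 except that of Irf4 in the Ccr7 Fscn1 gate, which rests on 1 UMI.

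Klf4 (chr4:55527137-55532475), a zinc finger factor of monocytes and of some type 2 dendritic cells, was highest of the myeloid gates in the Lyve1 Folr2 gate, whose check markers are those of resident macrophages. The Lyve1 Folr2 gate had 697 CPM (689 to 705), the MHC class II C1q gate 399.5 CPM (388 to 411), the monocyte gate 339 CPM (317 to 361), the Xcr1 Clec9a gate 283 CPM (266 to 300.2), the Cd209a Flt3 gate 245 CPM (227 to 265) and the Gpnmb Fabp5 gate 200 CPM (184 to 217). No neighbours in that order overlapped. The monocyte gate lay under the Lyve1 Folr2 gate, with a log2 ratio of -1.04 (-1.14 to -0.95). The Cd209a Flt3 gate lay under the Xcr1 Clec9a gate with a ratio of -0.20 (-0.35 to -0.06), but without cycling barcodes the ratio was 0.05 (-0.12 to 0.23), so its direction rested on them. In the Xcr1 Clec9a gate the 70 cycling barcodes had 336 CPM of Klf4 and the other 126 had 241 CPM.

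Klf4 was set beside the immediate early genes, which tissue dissociation can induce. Fos, Fosb, Jun, Junb, Egr1, Ier2, Atf3 and Dusp1, 8 of 8 measured, summed to 9841 CPM in the Lyve1 Folr2 gate and 8337 CPM in the MHC class II C1q gate, and to between 3789 and 4169 CPM in the monocyte, Gpnmb Fabp5, Xcr1 Clec9a and Cd209a Flt3 gates. Outside the myeloid cells, the mesenchymal gate had 856 CPM of Klf4 with a sum of 9936 CPM, and the endothelial gate 737 CPM with 10633 CPM. The Schwann gate went the other way, with 168 CPM of Klf4 and a sum of 6121 CPM, and among the 4 myeloid gates with the lower sums Klf4 did not follow their order. The part of the immediate early response in the Klf4 order was not tested. In the Ccr7 Fscn1 gate Klf4 was 59.3 CPM (27.1 to 113), with a sum of 2958 CPM.

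The counts of the 9 genes past 2-fold were set beside those of all genes with at least 50 UMIs over the gates of a pair. Between the Xcr1 Clec9a and Cd209a Flt3 gates, Irf8 and Id2 were at least 2-fold higher and Irf4 and Cebpb at least 2-fold lower, as were 8.03% and 8.8% of 7581 genes (7.13% and 8.98% where levels averaged at least 10 CPM, a filter chosen after the data were seen). Irf4 reached either filter through the Cd209a Flt3 gate alone (14 against 178 UMIs), so it is left out of this count, which leaves Cebpb lower. In the pooled dendritic against the pooled macrophage gates, Irf8, Batf3, Zbtb46 and Id2 were higher and Maf, Cebpb and Klf4 lower, beside 9.42% and 30.1% of 13483 genes (9.07% and 19.5% with the second filter). In the Lyve1 Folr2 against the monocyte gate, Irf4, Zbtb46, Maf and Klf4 were higher and Cebpb lower, beside 29.3% and 6.85% of 12734 genes, and against the Gpnmb Fabp5 gate the same 4 were higher and Cebpb and Id2 lower, beside 29.2% and 6.6%. In these unequal pairs the filter favours genes of the larger gate. With the second filter the shares were 17.3% and 8.44% against the monocyte gate and 18.0% and 7.92% against the Gpnmb Fabp5 gate. Zbtb46 did not reach that filter in either pair (349 UMIs against 4 and 2). Irf4 reached either filter through the Lyve1 Folr2 gate alone (742 UMIs against 14 and 10), so neither gene counts toward a difference here, which leaves Maf and Klf4 higher.

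Between the Gpnmb Fabp5 and monocyte gates none of the 7 genes that reached 50 UMIs passed 2-fold, where 5.91% of genes were higher and 7.31% lower (5.59% and 7.3% with the second filter). Id2 came nearest, with a log2 ratio of 0.96 (0.82 to 1.10), followed by Klf4 with -0.76 and Maf with 0.65. The Lyve1 Folr2 gate exceeded the MHC class II C1q gate at least 2-fold in Zbtb46 and Maf, beside 8.56% of genes, and in no gene of the list was it that much lower (3.84% of genes). Zbtb46 reached 50 UMIs through the Lyve1 Folr2 gate alone (349 against 34 UMIs), so only Maf counts toward a difference. With the second filter, which Zbtb46 did not reach, the shares of all genes were 4.19% and 2.99%. In the monocyte against the mesenchymal gate, Spi1, Irf8, Batf3 and Cebpb were higher (13.3% of genes) and Zbtb46 and Klf4 lower (40.3%). With the second filter the shares were 17.5% and 28.7%. Zbtb46 did not reach that filter and reached 50 UMIs through the mesenchymal gate alone (4 against 366 UMIs), which leaves Klf4 lower. In the Ccr7 Fscn1 gate against the other dendritic gates, Batf3, Zbtb46 and Id2 were higher (11.3%) and Cebpb and Klf4 lower (21.2%). Cebpb and Klf4 reached 50 UMIs through the other gates alone (9 UMIs each against 1514 and 1694), so neither counts toward a difference here. Irf4 also passed 2-fold lower by its point value, but from 1 UMI and with an interval that includes 0, and with the second filter the shares were 13.3% and 24.7%.

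A list of 32 other myeloid transcription factors gave the surroundings. Between the Xcr1 Clec9a and Cd209a Flt3 gates 28 were measured, 2 were at least 2-fold higher and 8 lower, beside 8.03% and 8.8% of all genes. Zeb2, a zinc finger repressor, stood at 24.5 and 1135 CPM, a log2 ratio of -5.53 (-5.85 to -5.23). Of the other inhibitors of E proteins, Id3 stood at 5.66 and 69.5 CPM and Id1 at 16.4 and 1.90 CPM, so that Id2 and Id1 were higher in the Xcr1 Clec9a gate and Id3 in the Cd209a Flt3 gate. In the pooled dendritic against the macrophage gates 5 of 32 were higher and 13 lower, beside 9.42% and 30.1% of all genes. Of the 13, Bhlhe41 (1 UMI against 452), Spic (8 against 533), Batf2 (11 against 508) and Nr1h3 (14 against 369) reached 50 UMIs through the larger macrophage gates alone, so that their direction was fixed by the filter. Egr2 stood at 9.70 against 149 CPM and, in the other direction, Bhlhe40 at 281 against 34.3 CPM.

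Along the macrophages, 8 of the 32 factors were at least 2-fold higher and 8 lower in the Lyve1 Folr2 than in the monocyte gate, beside 29.3% and 6.85% of all genes (17.3% and 8.44% with the second filter). Batf2 (427 against 10 UMIs) and Bhlhe41 (332 against 6) are among the 8 higher and reached 50 UMIs through the Lyve1 Folr2 gate alone, so they count toward no difference. The 4 largest were all lower, with log2 ratios of -4.07 (-4.27 to -3.88) for Bhlhe40, -2.82 for Nr1h3, -2.48 for Runx3 and -2.44 for Nfil3. Against the Gpnmb Fabp5 gate 13 were higher and 4 lower, beside 29.2% and 6.6% of all genes (18.0% and 7.92%), and the same holds for Batf2 (427 against 6 UMIs) and Irf7 (911 against 28) among the 13. Nr1h3, the sterol-sensing nuclear receptor LXRα, stood at 2.72 CPM in the Lyve1 Folr2 gate and 49.3 CPM in the Gpnmb Fabp5 gate, and Bhlhe40 at 10.4 and 221 CPM. Klf2, a close relative of Klf4, stood at 458 and 82.3 CPM, in the same direction as Klf4, and Cebpd at 213 and 38.1 CPM, in the opposite direction to Cebpb. In the Ccr7 Fscn1 gate 5 of 28 were higher and 7 lower than in the other dendritic gates, beside 11.3% and 21.2% of all genes. The filter favours genes of the larger gates in this pair too. Relb, the NF-kB subunit of mature dendritic cells, reached 738 against 64.3 CPM, a log2 ratio of 3.52 (3.21 to 3.82), and Runx1 112 against 582 CPM.

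Likeness of pattern was described by Pearson's r of log2(CPM + 1) over the 6 gates with at least 50 barcodes, which share 1 library, among 6876 genes. With 6 points many genes come close to 1. The nearest were Pilrb2 for Spi1 (0.993), Nup54 for Irf4 (0.963), Inpp1 for Irf8 (0.987), Hist1h1b for Batf3 (0.995), Eif2ak3 for Zbtb46 (0.997), Slc28a2 for Maf (0.998), Irak3 for Cebpb (0.997), Pabpn1 for Klf4 (0.994) and Ranbp9 for Id2 (0.990). The reporter Gfp was 970.0 CPM in the monocyte gate, 794 CPM in the Gpnmb Fabp5 gate, 639 CPM in the Cd209a Flt3 gate, 568 CPM in the MHC class II C1q gate, 243 CPM in the Lyve1 Folr2 gate and 205 CPM in the Xcr1 Clec9a gate. The sort was made on this protein, and its part in the sizes and makeup of the gates was not tested.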

How the data were processed

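The deposited matrix holds UMI counts per gene and barcode that the authors made with Cell Ranger and did not normalize. The matrix header names version 8.0.1 and the submitters' processing notes 7.1.0, and the sources name GRCm38 (mm10) as well as GRCm39. Gene positions and promoter windows are RefSeq's for GRCm38.p6. All 9 genes matched for position and 7 for a promoter. The study removed ambient RNA and doublets with DecontX and DoubletFinder, and neither was applied to these counts.

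Gates on fixed UMI thresholds were applied to barcodes of 5000 UMIs or more that had over 200 genes detected and a mitochondrial share below 10%. Myeloid barcodes had Ptprc, Tyrobp, Fcer1g, Laptm5, Ctss and Cd52 at 20 or more per 10000 UMIs, little collagen and fewer than 3 UMIs of endothelial, Schwann, T/NK or B cell genes. The monocyte gate took at least 5 UMIs of Ly6c2 and Chil3 with both present, and the Lyve1 Folr2 gate at least 5 UMIs of Lyve1, Folr2 and Cd163 over at least 2 of them. The Gpnmb Fabp5 gate took at least 3 and 5 UMIs. The MHC class II C1q gate took C1q genes at 20 and H2-Aa, H2-Ab1 and Cd74 at 50 per 10000 or more. It excluded barcodes that passed the Lyve1 Folr2 or Gpnmb Fabp5 gate, whatever their MHC class II level. Dendritic gates took under 10 per 10000 of C1q genes with at least 3 UMIs of Xcr1 and Clec9a, 3 of Cd209a and Flt3 (with MHC class II at 50), or 5 of Ccr7 and Fscn1. The Ccr7 Fscn1 gate took precedence over the Xcr1 Clec9a gate, and the latter over the Cd209a Flt3 gate. The mesenchymal gate took collagen genes at 100 per 10000 without the leukocyte level, and endothelial and Schwann gates at least 5 UMIs of their markers. Cycling barcodes held at least 2 UMIs of Mki67 and Top2a. Doublets were treated by leaving out barcodes of several gates, with Scrublet (scanpy 1.11.5) as an alternative that removed the top 14.6% of scores, 1267 barcodes.

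UMIs were pooled per gate and divided by all UMIs of the gate. Exact intervals at 95% used scipy 1.17.1. With 1 library per group there is no test. A gene at 0 was set to 3 counts for 2-fold calls and was never called higher. Names follow a fixed rule: the 9 genes, gate and check markers, up to 4 of 32 other factors per pair with the largest change, and the nearest genes by correlation among those of at least 20 CPM in a gate. The genes, gates and lists were chosen with earlier results of these data known, and the splits within gates and the immediate early list were added later, after the files were opened. Some values of the list of other factors are not reported here. The steps were tested on simulated data.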

Additional observations from a re-analysis of the deposited data

How the results depend on the processing

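No paired analysis was possible because each group holds 1 library and no test was run. Of 130 alternative values of the 13 comparisons, 115 stayed within the counting interval of the value reported, 14 moved outside it in the same direction and 1 reversed. Klf4 in the Cd209a Flt3 against the Xcr1 Clec9a gate reversed to 0.054 without cycling barcodes and was -0.38 with doubled gate thresholds. Doubled thresholds also gave 4.20 for Irf8 and 2.19 for Id2 between the Xcr1 Clec9a and Cd209a Flt3 gates and 5.86 for Spi1 in the monocyte against the mesenchymal gate. The latter was 5.73 at 10000 UMIs or more and 6.39 after Scrublet removal. With barcodes kept in each gate they pass, Maf in the Lyve1 Folr2 against the monocyte gate was 2.43, and the monocyte against the Lyve1 Folr2 gate gave 1.36 for Cebpb, -1.17 for Klf4 and 0.085 for Spi1. Cebpb there was 1.47 at 10000 UMIs or more, 1.55 after Scrublet removal and 1.55 without mitochondrial and ribosomal genes. Maf in the Lyve1 Folr2 against the Gpnmb Fabp5 gate was 2.39 without cycling barcodes. Leaving out barcodes also in the GFP- list, chosen after the data were seen, moved none of the 13. The cause of each shift was not tested.

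At 10000 UMIs or more the MHC class II C1q gate fell to 510 barcodes, the endothelial gate to 28 and the Schwann gate to 30, and without cycling barcodes the Xcr1 Clec9a gate fell to 126. The other 76 alternative counts stayed within 1.5 times. Shares of barcodes with a UMI depend on depth by construction. Without thinning and at 1000 UMIs they were 95.1% and 31.4% for Spi1 in the monocyte gate, 35.4% and 8.85% for Irf4 in the Cd209a Flt3 gate, 99.5% and 45.4% for Irf8, 80.6% and 9.18% for Batf3 and 91.3% and 32.7% for Id2 in the Xcr1 Clec9a gate. They were 53.3% and 9% for Zbtb46 in the pooled dendritic gates, 99.7% and 70.0% for Maf in the Lyve1 Folr2 gate and 78.0% and 27.8% for Klf4 in the monocyte gate, where Cebpb was 90.1% at 1000 UMIs.

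The limits are those of 1 library. Intervals leave out differences between animals and between barcodes. The 12 barcodes of the Ccr7 Fscn1 gate hold 151781 UMIs, so its 0 and 1 counts bound little. The gates are thresholds on a range of levels, and barcodes with fewer than 5000 UMIs, 27506 of them, were not used.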

Other observations

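The 946 myeloid barcodes that passed no gate had 321 CPM of Spi1, 1699 CPM of Cebpb, 427 CPM of Maf, 365 CPM of Klf4 and 297 CPM of Id2. Their Irf4 was 25.2 CPM (22.4 to 28.2), above both Lyve1 Folr2 and MHC class II C1q macrophages, and 1 barcode held 23 of the 300 UMIs. Their Gfp level was 845 CPM.

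The 5 barcodes of the Siglech Ccr9 plasmacytoid gate held 39 UMIs of Irf8 (741 CPM, 527 to 1013), 13 of Spi1, 18 of Cebpb and 0 of Batf3, Zbtb46, Maf and Id2. A count of 0 there allows up to 57.0 CPM at 3 counts. Tcf4, the E protein that specifies these cells, was 2053 CPM in them and 50.2 CPM in the Xcr1 Clec9a gate. They also carried 0 UMIs of Gfp. The single neutrophil barcode held 3 UMIs of Spi1 and 2 of Cebpb and none of the other genes.

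Cycling barcodes of the Xcr1 Clec9a gate had more Cebpb than the others, 79.3 against 35.5 CPM, a log2 ratio of 1.16 (0.74 to 1.59), and more Zbtb46 (0.37, 0.07 to 0.68). Their median depth was 22701 against 16303 UMIs. Irf8 (0.12, 0.01 to 0.24), Batf3 (0.13, -0.16 to 0.42) and Id2 (0.02, -0.12 to 0.15) differed little. One barcode held 29 of the 203 Cebpb UMIs in this gate. Mki67 and Top2a summed to 337 CPM in the Xcr1 Clec9a gate and 103 CPM in the Cd209a Flt3 gate.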
